A study of Homo sapiens with 16 samples.

Results

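The genes described here are 10 genes of the dense-core granule and its cargo, namely the granins and granin-related genes CHGA, CHGB, SCG2, SCG3, SCG5 and VGF and the neuropeptide precursor genes NPY, GAL, VIP and SST. They were chosen by symbol as dense-core granule proteins and sympathetic neuropeptides, all 10 were among the 27037 genes of the count table, and 9 of them were among the 15415 genes with enough counts to be tested. SCG5 was not tested. The samples were RNA-sequencing libraries of SK-N-BE(2)C, a human neuroblastoma line of the adrenergic type with MYCN amplification. The 4 groups, of 4 replicates each, were cells given the vehicle DMSO, 10 µM of all-trans retinoic acid (RA), 1 µM of palbociclib (PB) or both agents at these doses (PB+RA), for 5 days per the study's methods. RA is a retinoid that acts through nuclear receptors, and retinoids are given to patients to drive neuroblastoma cells to differentiate. PB blocks CDK4 and CDK6, the kinases that cyclin D uses to drive cells out of G1. A single line was used, and replicates were passages of it, so the spread between samples is that between cultures of 1 line.

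Granins are acidic, calcium-binding proteins that aggregate with peptide hormones and catecholamines in the trans-Golgi network and are packed with them into dense-core granules, from which calcium entry releases both. Several granins and all neuropeptide precursors are cut by prohormone convertases on the way, so that 1 precursor gives peptides that act on G-protein-coupled receptors of other cells. Sympathetic neurons and adrenal chromaffin cells, which arise from the same neural crest lineage as neuroblastoma, store noradrenaline or adrenaline with chromogranins and NPY. VIP is found in the cholinergic kind of sympathetic neuron, and galanin is a peptide that sympathetic neurons make after injury. Chromogranin A in blood is a marker of neuroendocrine tumours.

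Levels are given as CPM, the count of a gene scaled to a total of 1000000 in each sample, and the totals ranged from 19.5 to 31.6 M. A gene was called higher or lower when its Benjamini-Hochberg adjusted p over all tested genes from edgeR's quasi-likelihood test was below 0.05 and its log2 fold change was above 0.5 in size. Of the transcription factors that define the adrenergic state, PHOX2A lay at 881 CPM on average in DMSO and HAND2 at 790, whereas the Schwann cell regulator SOX10 had at most 1 count in any sample. The summed level of the 9 adrenergic markers lay between 3177 and 4716 CPM in all samples, and that of the 5 Schwann cell and glial markers in the table between 18.4 and 54.6. In such bulk samples, fewer cells of a type and less RNA per cell cannot be told apart. In CHGA, NPY, VIP and SST, replicates 1 and 2 did not overlap replicates 3 and 4 in any group, and values within each of these pairs are therefore given where they change a call. The difference between the pairs was not tested, and the labels give no batch. As the pairs were set apart after these values were seen and hold few cultures each, p-values within a pair are a description.

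The share of all counts taken by the 10 genes was lowest in DMSO and highest in PB+RA. DMSO samples stood at 0.684% ± 0.0314, RA samples at 0.934% ± 0.0321, PB samples at 1.11% ± 0.0407 and PB+RA samples at 1.35% ± 0.186 (SD, n = 4). The ranges of the 4 groups did not overlap, with 0.642% to 0.719% in DMSO and 1.17% to 1.51% in PB+RA at the ends. This sum is a description. Per length of the main transcript, the order in DMSO was CHGA (860 CPM per kilobase), GAL (699), SCG2 (680), VGF (651), VIP (335), CHGB (187), SCG3 (85.8), NPY (43.9) and SST (6.92), with SCG5 at 0.014. GAL, SCG2 and VGF lay closer to one another there than the SD of each, which was 76.5, 87.1 and 76.7. In PB+RA the order was GAL (3188 CPM per kilobase), CHGA (1919), VGF (1103), SCG2 (732), CHGB (691), VIP (337), SCG3 (115), NPY (78.8) and SST (39.6). The means of SCG2 and CHGB lay closer in that group than their SDs of 59.7 and 70.6, but SCG2 was above CHGB in each PB+RA sample. NPY and SST did not differ beyond the larger of their SDs, which were 71.8 and 24.7. By the means, CHGA led per length in DMSO and PB, at 1952 in the latter, and GAL led in RA, at 1900, and in PB+RA. In DMSO the SD of CHGA was 129, and in replicate 3 of that group SCG2 and VGF lay above CHGA per length.

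**Figure D1:**
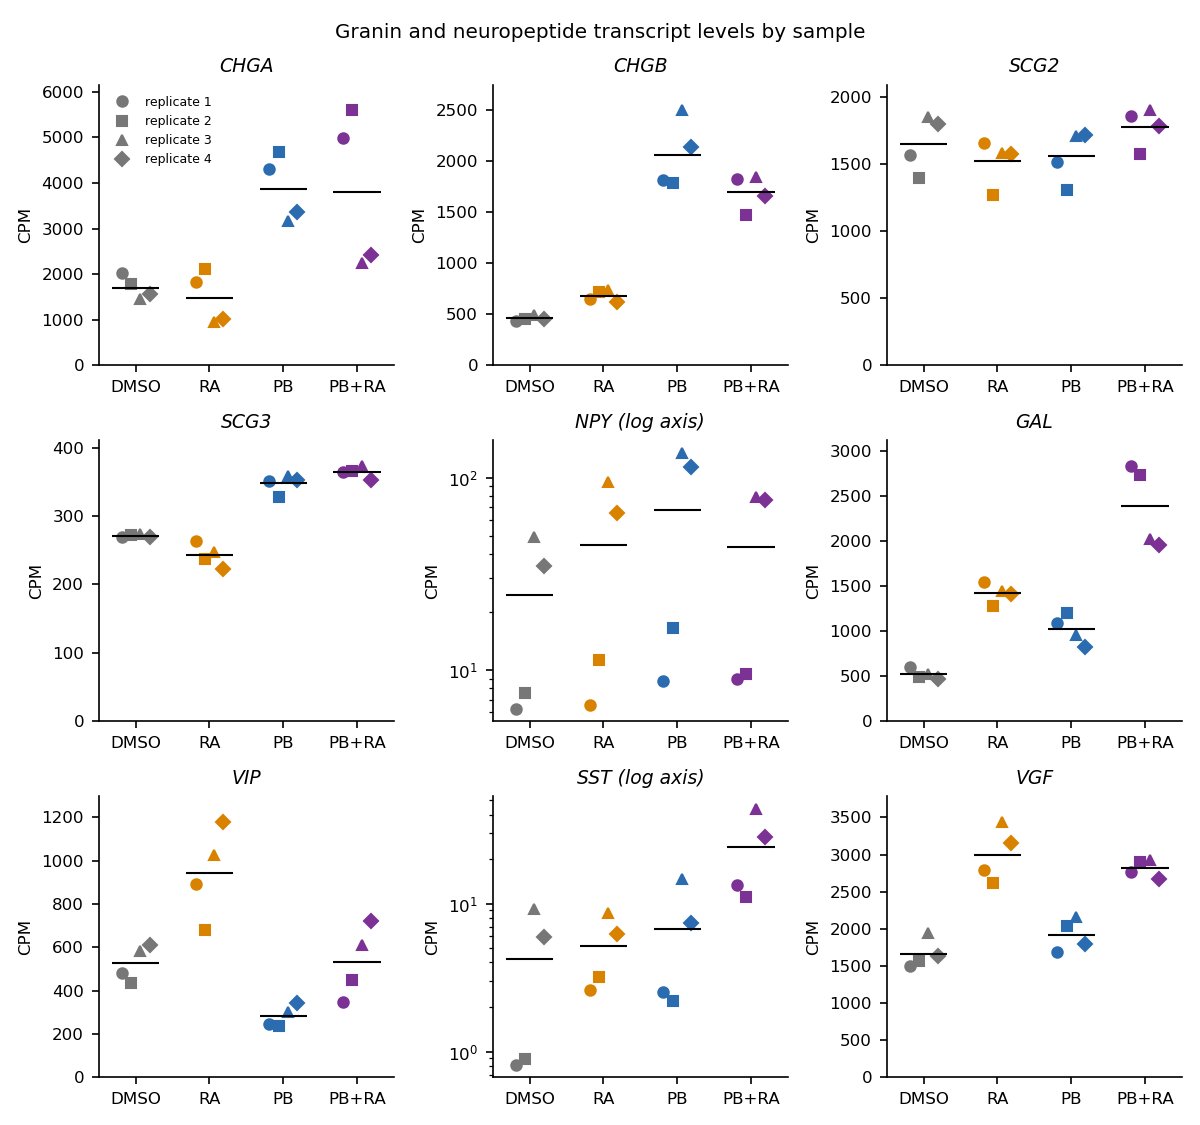
Level of the 9 tested genes in each of the 16 samples, as CPM on a linear axis from 0 except for NPY and SST, which are on a log axis; marker shapes are replicate numbers, and the horizontal bars are group means. CHGB, SCG3 and CHGA stand higher in PB and PB+RA, VGF in RA and PB+RA, and NPY and SST are parted by replicate number in every group.

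The promoters of 3 of the genes are shown, because SST and VGF share an element that can be compared with the related pair in VIP. RefSeq promoter windows, from 250 bases before the transcription start to 50 after it, were searched for 6 of the 10 genes, namely NPY, SCG3, SCG5, SST, VGF and VIP. Each sequence is read 5′ to 3′ on the strand of the gene, and capitals mark the cyclic AMP response element in its full form TGACGTCA, its short form TGACG on either strand, and the TATA box TATAAA on either strand. Each window was matched exactly and once to GRCh37: SST at chr3:187388133-187388432 on the minus strand, VGF at chr7:100808801-100809100 on the minus strand and VIP at chr6:153071682-153071981 on the plus strand.
SST: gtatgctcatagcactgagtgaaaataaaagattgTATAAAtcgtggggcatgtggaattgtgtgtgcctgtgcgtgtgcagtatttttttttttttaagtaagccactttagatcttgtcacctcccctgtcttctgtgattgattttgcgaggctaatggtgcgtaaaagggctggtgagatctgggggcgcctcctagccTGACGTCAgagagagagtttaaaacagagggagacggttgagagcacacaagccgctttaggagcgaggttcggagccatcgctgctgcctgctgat
VGF: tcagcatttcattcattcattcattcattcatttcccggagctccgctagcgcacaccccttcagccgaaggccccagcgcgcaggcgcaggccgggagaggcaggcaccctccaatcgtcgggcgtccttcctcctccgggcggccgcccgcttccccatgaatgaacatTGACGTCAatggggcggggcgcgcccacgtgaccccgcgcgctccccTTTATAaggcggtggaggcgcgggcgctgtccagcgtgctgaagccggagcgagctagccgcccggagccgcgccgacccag
VIP: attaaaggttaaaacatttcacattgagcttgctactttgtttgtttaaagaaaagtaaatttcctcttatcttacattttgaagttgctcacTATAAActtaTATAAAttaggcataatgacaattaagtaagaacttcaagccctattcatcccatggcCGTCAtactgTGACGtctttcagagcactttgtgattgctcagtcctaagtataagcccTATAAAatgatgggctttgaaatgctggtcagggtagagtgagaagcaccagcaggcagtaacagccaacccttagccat

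The full element, which binds CREB family factors that respond to cyclic AMP, was found in SST from -47 to -40 and in VGF from -79 to -72, counted from the RefSeq start. It was found in 649 of 35116 promoter windows of this length, or 1.85%. The short form, which lies within every full one, was found in SCG3, SCG5, SST, VGF and VIP, against 24.6% of all windows. In VIP it occurred as a pair on opposite strands, at -89 and at -79, with no full element. TATAAA was found in SST, VGF and VIP, against 11.5% of all windows. The direct repeat with a spacer of 5 bases that retinoic acid receptors bind was searched by its consensus and matched in 0 of the 6 windows, against 0.0057% of all windows. The VIP window held 3 TATA matches, and NPY held none of the motifs searched. These matches are descriptions of letters and not of binding.

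**Figure D2:**
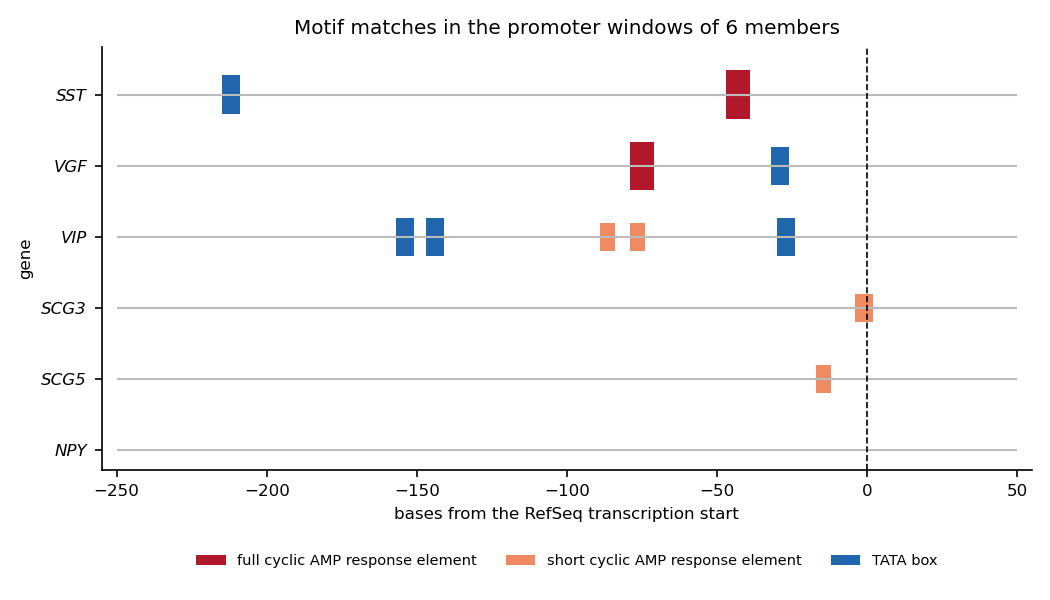
Positions of the motif matches in the promoter windows of 6 genes, in bases from the RefSeq start, with a bar for each match and a dashed line at the start; short elements inside a full one are not drawn separately. The full element lies within 80 bases before the start in SST and VGF, and VIP holds a pair of short elements that begin at -89 and at -79.

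CHGA encodes chromogranin A, the main soluble protein of the granule core and the source of vasostatin and catestatin (chromosome 14, 93389495 to 93401630, plus strand, GRCh37). Its level in replicates 1 to 4 was 2029, 1784, 1449 and 1564 CPM in DMSO. In RA it was 1833, 2114, 946 and 1007 CPM, which overlaps DMSO, with replicates 3 and 4 below every DMSO sample. In PB it was 4299, 4689, 3157 and 3354 CPM, and in PB+RA 4983, 5600, 2235 and 2419, and every sample of both groups lay above every sample of DMSO and RA. With PB, CHGA rose by 1.18 on the log2 scale, with a standard error (SE, after the ± sign throughout) of 0.32 and an adjusted p of 0.0056, to 2.27 times its level in DMSO. PB+RA raised it by 1.13 ± 0.32 (adjusted p 0.00557), to 2.19 times. With RA alone the log2 change was -0.22 ± 0.31 (adjusted p 0.626), and between PB+RA and PB it was -0.05 ± 0.31 (adjusted p 0.921), neither of which was called. By its mean CHGA was the 19th most abundant gene of the table in DMSO and the 3rd in PB.

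The values of CHGA with RA were not alike in both replicate pairs, though a difference of the RA effect between pairs was not tested. In replicates 1 and 2 alone, RA changed CHGA by 0.04 ± 0.09 on the log2 scale (adjusted p 0.774), and in replicates 3 and 4 alone it fell by 0.68 ± 0.049 (adjusted p 1.64e-08). In the presence of PB, addition of RA gave 0.22 ± 0.09 (adjusted p 0.097) in replicates 1 and 2, and in replicates 3 and 4 CHGA fell by 0.51 ± 0.049 (adjusted p 3.04e-07). The rise with PB was 1.23 in replicates 1 and 2 and 1.07 in replicates 3 and 4, and that with PB+RA was 1.44 in replicates 1 and 2 and 0.56 in replicates 3 and 4.

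CHGB encodes chromogranin B, a granin that promotes granule formation (chromosome 20, 5892156 to 5905999, plus strand). Its level in replicates 1 to 4 was 435, 456, 496 and 453 CPM in DMSO and 651, 723, 741 and 616 CPM in RA. In PB it was 1818, 1786, 2500 and 2142 CPM, and in PB+RA 1828, 1471, 1843 and 1659 CPM. Only the groups PB and PB+RA overlapped. CHGB had the largest called rise with PB of the members, 2.17 ± 0.11 on the log2 scale (adjusted p 5.25e-10), or 4.49 times DMSO. RA raised it by 0.56 ± 0.1 (adjusted p 0.000668), and the combination did so by 1.86 ± 0.11 (adjusted p 3.07e-10). The RA call is near the fold minimum and was lost without RA replicate 3 (0.49) and in replicates 3 and 4 alone (0.46, adjusted p 0.0436).

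The rise of CHGB with both agents was smaller than the sum of the single rises. The interaction, which is the log2 change with PB+RA minus the sum of the changes with PB and with RA, was -0.87 ± 0.15 (adjusted p 0.0029). RA raised CHGB by 0.56 without PB, and with PB present the change upon adding RA was -0.31 ± 0.1 (adjusted p 0.0275), which is under the fold minimum. The PB+RA sample lay below the PB sample of the same replicate number in 3 of 4 numbers, with ratios of 1.01, 0.824, 0.737 and 0.774. The interaction call missed the threshold in replicates 3 and 4 alone (-0.89 ± 0.19, adjusted p 0.0505) and was kept in replicates 1 and 2 (-0.76, adjusted p 0.0116).

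SCG2 and SCG3 were the steadiest members. SCG2 encodes secretogranin II, the precursor of secretoneurin (chromosome 2, 224461658 to 224467079, minus strand), and lay between 1269 and 1905 CPM in all 16 samples, with means of 1655 ± 212 for DMSO, 1522 ± 173 for RA, 1564 ± 196 for PB and 1782 ± 145 for PB+RA (SD, n = 4). All 4 groups overlapped, and its log2 changes against DMSO were -0.08, -0.13 and 0.08 for PB, RA and PB+RA, each with an SE of 0.11. SCG3 encodes secretogranin III, which tethers CHGA aggregates to cholesterol-rich granule membrane (chromosome 15, 51973689 to 52013223, plus strand). It lay at 269, 273, 274 and 269 CPM in DMSO and at 263, 237, 248 and 222 CPM in RA. PB samples had 351, 328, 359 and 352 CPM, and PB+RA samples 365, 366, 373 and 353. All RA samples lay below, and all PB and PB+RA samples above, the DMSO range, but the steps were small, so that SCG3 passed the p threshold and not the fold minimum against DMSO (PB 0.36 ± 0.051, adjusted p 1.75e-05, RA -0.17 ± 0.051, adjusted p 0.0161, and both 0.40 ± 0.051, adjusted p 2.99e-06). It was called higher in PB+RA than in RA (0.57 ± 0.051, adjusted p 9.92e-08) and in PB than in RA (0.53 ± 0.051, adjusted p 4.43e-07). The latter call was lost without RA replicate 2 (0.50, under 0.5 before rounding) or RA replicate 4 (0.49) and in replicates 1 and 2 alone (0.43). GENCODE places the noncoding genes ENSG00000259241 and ENSG00000259296 on the opposite strand within SCG3, and as the strand setting of the counting is not given, reads from them could not be told apart.

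SCG5 encodes 7B2, the chaperone of prohormone convertase 2 (chromosome 15, 32933877 to 32989299, plus strand). It had between 0 and 5 counts in each sample, with 2 counts in all over the 4 DMSO samples, 3 over RA, 7 over PB and 8 over PB+RA. A count of 0 allows up to 3 counts, which is 0.0949 CPM in the deepest sample and 0.154 in the shallowest, for counting error only, and no fold is given. Its target, the convertase gene PCSK2, had at most 3 counts in any sample, and PCSK1, the other convertase of neuroendocrine granules, had at most 6. GENCODE also places the read-through gene ARHGAP11A-SCG5 over all of SCG5 on the same strand and SCG5-AS1 on the opposite strand. If the annotation used for counting held the read-through gene, reads shared by both would not have been assigned, and this was not tested.

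VGF encodes a granin-like precursor that is induced by nerve growth factor and gives peptides such as TLQP-21 (chromosome 7, 100805790 to 100808850, minus strand). It lay at 1494, 1573, 1942 and 1638 CPM in DMSO and at 1691, 2044, 2163 and 1789 CPM in PB, which overlap. In RA it reached 2798, 2612, 3437 and 3149 CPM, and in PB+RA 2771, 2896, 2925 and 2664, and both groups lay above all samples of the other two. RA raised VGF by 0.84 ± 0.1 on the log2 scale (adjusted p 1.28e-05), and the combination gave a rise of 0.73 ± 0.1 (adjusted p 7.05e-06). With PB the change was 0.21 ± 0.099 (adjusted p 0.0833), and PB+RA differed from RA by -0.11 ± 0.099 (adjusted p 0.364). The difference of VGF between PB and RA was itself called (-0.63 ± 0.099, adjusted p 6.99e-05). Its rise from PB to PB+RA (0.52 ± 0.099, adjusted p 0.000694) was lost with apeglm shrinkage (0.50, under 0.5 before rounding), without PB replicate 1 (0.47) or PB replicate 4 (0.49) and in replicates 3 and 4 alone (0.47, adjusted p 0.0509).

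**Figure D3:**
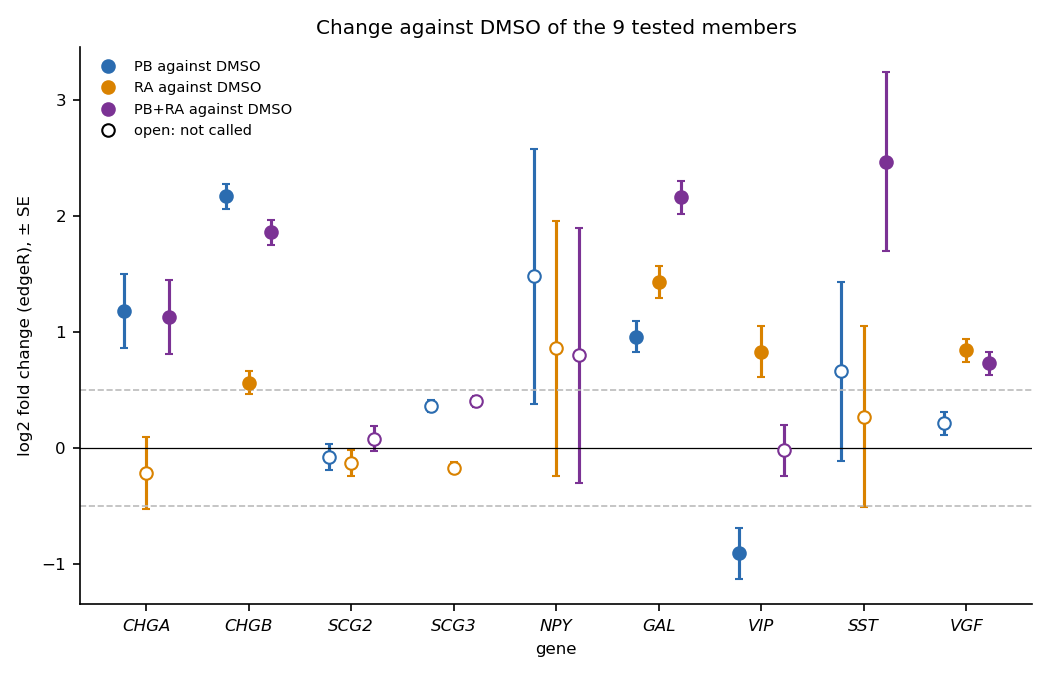
Log2 fold changes against DMSO with their SE for the 9 tested genes, from edgeR; filled points were called, open ones were not, and dashed lines mark the fold minimum of 0.5. GAL is the highest of the called rises with RA, at 1.43, CHGB with PB, at 2.17, and SST with PB+RA, at 2.47, where its SE of 0.77 spans the 2.16 of GAL.

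GAL, the galanin precursor gene (chromosome 11, 68451247 to 68458643, plus strand), was raised by each agent and most by both. It lay at 601, 494, 530 and 470 CPM in DMSO and at 1091, 1199, 963 and 830 in PB. In RA it was 1547, 1286, 1444 and 1413 CPM, and in PB+RA 2834, 2735, 2025 and 1957 CPM. None of the 4 groups overlapped, in the order DMSO, PB, RA and PB+RA. PB raised GAL by 0.96 ± 0.13 on the log2 scale (adjusted p 2e-05) and RA by 1.43 ± 0.14 (adjusted p 2.01e-06). The rise with both agents was 2.16 ± 0.14 (adjusted p 1.72e-09), or 4.47 times DMSO. The interaction was -0.23 ± 0.19 (adjusted p 0.582). PB+RA lay above PB by 1.20 ± 0.13 (adjusted p 6.29e-06) and above RA by 0.73 ± 0.13 (adjusted p 0.000259). In replicates 3 and 4 alone the rise above RA was 0.47 ± 0.079 (adjusted p 0.00093), under the fold minimum, against 0.95 in replicates 1 and 2. PB lay below RA by less than the minimum (-0.47 ± 0.13, adjusted p 0.00782), a difference that passed it without PB replicate 2 (-0.57), without RA replicate 2 (-0.53) and in replicates 3 and 4 alone (-0.66).

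VIP, the gene of vasoactive intestinal peptide (chromosome 6, 153071932 to 153080900, plus strand), was moved in opposite directions by the single agents. It lay at 483, 436, 585 and 613 CPM in DMSO, at 245, 237, 302 and 345 in PB, at 894, 680, 1025 and 1178 in RA and at 346, 449, 613 and 721 in PB+RA. All PB samples lay below, and all RA samples above, the DMSO range, and PB+RA spanned it. VIP fell by 0.91 ± 0.22 on the log2 scale with PB (adjusted p 0.00268) and rose by 0.83 ± 0.22 with RA (adjusted p 0.00854). With PB+RA it differed from DMSO by -0.02 ± 0.22 (adjusted p 0.939). With the other agent present, RA added to PB raised VIP by 0.89 ± 0.22 (adjusted p 0.00529), PB added to RA lowered it (-0.85 ± 0.22, adjusted p 0.00407), and the interaction was 0.06 ± 0.3 (adjusted p 0.957). VIP was 3.32 times as high in RA as in PB (log2 -1.73 ± 0.22 for PB against RA, adjusted p 1.55e-05). The other markers of the cholinergic sympathetic neuron in the list were not called against DMSO, with the acetylcholine transporter gene SLC18A3 at log2 changes of -0.11 with PB, -0.30 with RA and 0.17 with PB+RA, CHAT at 0.21, -0.10 and -0.36, and SLC5A7 at no more than 1 count. GENCODE places LINC02840 on the strand opposite to VIP.

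NPY, the neuropeptide Y gene (chromosome 7, 24323807 to 24331481, plus strand), was parted by replicate number more than by treatment. It lay at 6.28, 7.62, 48.9 and 34.7 CPM in DMSO. PB samples had 8.79, 16.5, 134 and 113 CPM, RA samples 6.55, 11.2, 95.4 and 65.7, and PB+RA samples 8.99, 9.56, 79.7 and 76.7. The mean of replicates 3 and 4 was 6.02 times that of replicates 1 and 2 in DMSO, 9.77 times in PB, 9.05 times in RA and 8.43 times in PB+RA. All groups overlapped, and with no account taken of the replicate number, no change of NPY was called (for PB 1.48 ± 1.1, adjusted p 0.27, for RA 0.86 ± 1.1, adjusted p 0.573, and for both 0.80 ± 1.1, adjusted p 0.533). Against the DMSO sample of the same number, the ratio was above 1 in 4 of 4 numbers with each treatment, from 1.4 to 3.26 in PB, 1.04 to 1.95 in RA and 1.25 to 2.21 in PB+RA. With the replicate number as a block in the model, NPY was called higher than in DMSO in PB (1.33 ± 0.16, adjusted p 1.01e-05), in RA (0.74 ± 0.16, adjusted p 0.00225) and in the combination (0.73 ± 0.16, adjusted p 0.00128). In the blocked fit it was also lower in PB+RA than in PB (-0.60 ± 0.15, adjusted p 0.00534), higher in PB than in RA (0.60 ± 0.15, adjusted p 0.00415), and below the sum of the single effects (interaction -1.34 ± 0.22, adjusted p 0.00136). Without the block the interaction was -1.54 ± 1.5 (adjusted p 0.676). The PB rise was also called in replicates 3 and 4 alone (1.51 ± 0.27, adjusted p 0.00906) and not in replicates 1 and 2 (0.85 ± 0.35, adjusted p 0.0828). The other 5 calls of the blocked fit were made in neither replicate pair alone, where their adjusted p lay between 0.278 and 0.52 in replicates 1 and 2 and between 0.0523 and 0.113 in replicates 3 and 4.

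SST, the somatostatin gene (chromosome 3, 187386700 to 187388182, minus strand), was the least abundant of the tested members and was called higher with PB+RA. It lay at 0.816, 0.897, 9.14 and 5.96 CPM in DMSO, at 2.53, 2.18, 14.7 and 7.42 in PB and at 2.62, 3.19, 8.63 and 6.26 in RA. In PB+RA it was 13.3, 11.1, 43.4 and 28.4 CPM, above all DMSO and RA samples and overlapping PB. The DMSO values of replicates 1 and 2 rest on 23 and 22 counts. SST rose by 2.47 ± 0.77 with PB+RA (adjusted p 0.0108), or 5.53 times, and lay above RA by 2.19 ± 0.76 (adjusted p 0.0242). Neither PB alone (0.66 ± 0.77, adjusted p 0.498) nor RA alone (0.27 ± 0.78, adjusted p 0.813) gave a called change, and the step from PB to PB+RA was not called (1.81 ± 0.75, adjusted p 0.0715). The difference from RA was lost without RA replicate 1 (adjusted p 0.0677), RA replicate 2 (0.068) or PB+RA replicate 3 (0.0881), and with no low-count filter (0.0646), and the difference from PB was gained without PB replicate 3 (2.56, adjusted p 0.0279) and with limma-voom (2.04, adjusted p 0.0356).

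Within replicate numbers SST was higher in PB+RA than in DMSO, PB and RA in 4 of 4. PB+RA over the DMSO sample of the same number was 16.3, 12.4, 4.74 and 4.76 times, and PB+RA over PB was 5.26, 5.11, 2.95 and 3.82 times. With the replicate block, SST was called higher with PB (0.70 ± 0.27, adjusted p 0.0363) and in PB+RA than in PB (1.93 ± 0.23, adjusted p 1.83e-05), and its interaction was above 0 (1.50 ± 0.36, adjusted p 0.0134). The step from PB to PB+RA was also called within each replicate pair, at 2.36 ± 0.19 (adjusted p 4.89e-06) in replicates 1 and 2 and 1.69 ± 0.44 (adjusted p 0.0371) in replicates 3 and 4. Without the block the interaction was 1.53 ± 1.1 (adjusted p 0.517), and it was not called in either replicate pair alone (0.60, adjusted p 0.37, and 1.77, adjusted p 0.214). In replicates 1 and 2 alone, SST was raised by RA (1.75 ± 0.24, adjusted p 0.000389) and by PB (1.45 ± 0.25, adjusted p 0.00051). In replicates 3 and 4 these changes were -0.08 ± 0.51 (adjusted p 0.917) and 0.49 ± 0.5 (adjusted p 0.466). The DMSO level itself was 8.82 times as high in replicates 3 and 4 as in replicates 1 and 2, and in PB+RA the same ratio was 2.94.

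**Figure D4:**
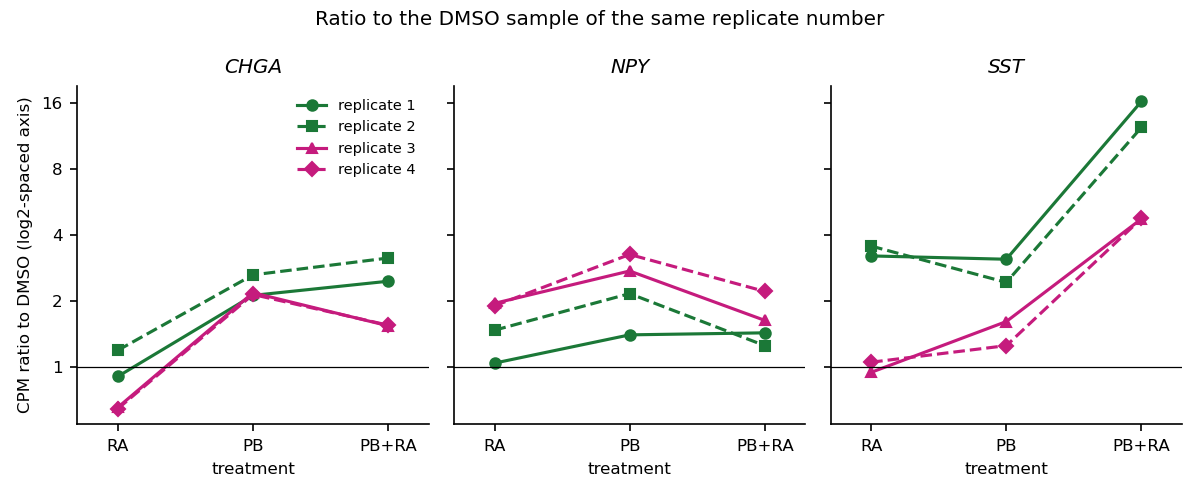
CPM of CHGA, NPY and SST over the DMSO sample of the same replicate number, on a log2-spaced axis; green lines are replicates 1 and 2 and pink lines replicates 3 and 4. With RA, CHGA lies below 1 in replicates 3 and 4 (0.653 and 0.644), and SST reaches 16.3 and 12.4 with PB+RA in replicates 1 and 2 against 4.74 and 4.76 in the others.

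CHGB and GAL were called higher with each single agent, and VIP was called with each, in opposite directions. The comparison of PB with DMSO asked what inhibition of CDK4 and CDK6 does to them: PB raised CHGA, CHGB and GAL and lowered VIP, so 3 of the 9 tested members were higher and 1 was lower, where 16.9% of all tested genes were called higher and 11.3% lower. With the replicate block NPY and SST were added to the rises, at a background of 18.7%. RA raised CHGB, GAL, VIP and VGF, 4 of 9 with a background of 10.8%, and lowered 0, with a background of 2.54% (NPY was added with the block, at 13.0%). PB+RA raised CHGA, CHGB, GAL, SST and VGF, 5 of 9 against 24.0% of all tested genes, and lowered 0 against 17.9% (6 of 9 with the block, NPY added, at 25.4%). These comparisons share the DMSO samples. Over all tested genes, median log2 changes were from -0.04 to 0.04.

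To ask what a second agent adds, PB+RA was compared with each single one. Against PB, GAL, VIP and VGF were higher, 3 of 9 with a background of 9.02%, and 0 were lower, with 7.27%. The block added SST to the rises (background 10.7%) and NPY to the falls (8.30%). Against RA, CHGA, CHGB, SCG3, GAL and SST were higher, 5 of 9 with a background of 14.9%, and VIP was lower, with 14.1%. Between the single agents, CHGA, CHGB and SCG3 were higher in PB (background 12.3%; 13.5% with the block, which added NPY), and VIP and VGF were lower (13.8%). Of the interactions, that of CHGB was called below 0, with a background of 3.02%, and 0 of 9 were called above 0, with 0.415%. With the block, NPY joined CHGB below 0 (background 6.36%) and SST was above 0 (1.23%). Where edgeR called 0 members, 1 had an unadjusted p below 0.05 for the falls with RA (SCG3), for the falls from PB to PB+RA (CHGB) and for interactions above 0 (SCG3), and 0 did for the falls with PB+RA. DESeq2 and limma-voom also called 0 in these. Each share of the 9 members rests on few genes.

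The genes whose log2 CPM followed a member most closely over the 16 samples, the members left out, were found for each of the 9 as a description, since the points share treatments, replicate numbers and depth. CHGB was followed by TSPAN7, MYT1 and SNAP91 (r = 0.987, 0.982 and 0.98, n = 16), which code for a tetraspanin, a neuronal zinc finger factor and a clathrin adaptor of synaptic vesicles. GAL was followed by LIMK1, CLIP2 and ZNF703 (0.988, 0.985 and 0.979), SCG3 by PRPH, RNF113A and FAM155A (0.978, 0.972 and 0.97), where PRPH codes for the neuronal intermediate filament protein peripherin, and VIP by B3GNT5, ST6GALNAC3 and MYL12A (0.981, 0.976 and 0.971). CHGA was closest to RPL15, TRMT1 and TMEM38A (0.979, 0.974 and 0.974), and VGF to HIC1, OCIAD2 and SOX4 (0.966, 0.96 and 0.959). NPY and SST, which carry the split between replicate pairs, were closest to NDN, EPB41L3 and HS6ST2 (0.965, 0.959 and 0.949) and to CD200, LRRN3 and TRIM4 (0.954, 0.951 and 0.948). For SCG2, which barely varied, the closest were GFRA2, DNAL4 and ID1, with lower values (0.889, 0.857 and 0.846). Over the 4 group means alone, the correlation of NPY with NDN was 0.503 and that of SCG2 with DNAL4 was 0.61. Among the members, CHGB and SCG3 had the highest correlation (0.854), followed by CHGA and SCG3 (0.812) and GAL and VGF (0.809), and CHGA and VIP the lowest (-0.835).

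Genes that build the granule, process its peptides and release them were examined as a list of 50 genes, of which 46 were tested. With PB, 29 were called higher (63% of the list against 16.9% of all tested genes) and 1 lower (2.17% against 11.3%), with a median log2 change of 0.72 against 0.03 over all tested genes. With RA, 12 were higher (26.1% against 10.8%) and 2 lower (4.35% against 2.54%), with a median of 0.27 against 0.01. With PB+RA, 30 were higher (65.2% against 24.0%) and 2 lower (4.35% against 17.9%), with a median of 0.90 against 0.04. For RA added to PB the shares were near those over all genes, with 4 higher (8.7% against 9.02%), 3 lower (6.52% against 7.27%) and a median of -0.01 in both. For PB added to RA, 23 were higher (50% against 14.9%) and 1 lower (2.17% against 14.1%), with a median of 0.60 against 0.00. The largest rises with PB+RA among genes that averaged 1 CPM or more across the DMSO and PB+RA samples were those of SYT17, a synaptotagmin (log2 3.57, from 3.2 to 39.1 CPM), CPE, the carboxypeptidase that trims peptides cut by the convertases (2.94, from 0.282 to 2.25 CPM), HID1, a trans-Golgi protein needed for granule maturation (2.74, from 8.11 to 55.4 CPM), and the calcium sensor DOC2B (2.62, from 0.905 to 5.61 CPM), with adjusted p of 4.05e-06, 0.000196, 2.41e-10 and 0.000395. CPE and DOC2B were below 1 CPM in DMSO and reached that mean only through PB+RA, so their place in this order is a description. CPE did not have enough counts in DMSO alone to be tested, so its rise is a description as well. The 2 that fell were RPH3A, a RAB3 effector (-2.04, from 31 to 7.66 CPM, adjusted p 1.58e-07), and RAB27A, a GTPase of granule docking (-1.41, from 21.9 to 8.45 CPM, adjusted p 1.18e-05). RPH3A fell with RA alone (-2.24) and not with PB (0.35), and RAB27A fell with PB (-0.97) and not with RA (-0.19).

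Some further genes of this list are named after their values were seen. PCSK1N, the granin-like precursor proSAAS that inhibits prohormone convertase 1, rose in all 3 treatments (log2 1.27 with PB, 0.62 with RA and 1.74 with PB+RA) and reached 569 CPM in PB+RA. PAM, which amidates peptide ends such as that of NPY and VIP, rose by 0.54, 0.76 and 0.95. The other tested enzymes of peptide processing were not called with PB+RA, with log2 changes of -0.09 for the carboxypeptidase gene CPD, 0.04 for the cathepsin gene CTSL and 0.21 for QPCT, which forms pyroglutamate ends. QPCT was called higher with PB (0.75) and with RA (0.63) and lower in PB+RA than in PB (-0.54), and its interaction of -1.17 was called. The vesicular monoamine transporter genes SLC18A1 and SLC18A2, which load catecholamines into the granule, rose with PB by 2.24 and 2.08 and with PB+RA by 1.88 and 1.89, and were not called with RA. SLC18A1 and PNMT, the enzyme that makes adrenaline, are chromaffin cell markers. All 4 measured markers of that list, CHGA and CHGB included, rose with PB and with PB+RA, where 16.9% and 24.0% of all tested genes were called higher. With RA 2 of them rose, CHGB and PNMT (50% against 10.8%). The calls of CHGA and CHGB are those of the members given above. PNMT rose by 2.06 with PB, 2.82 with RA and 3.61 with PB+RA. Their summed level ranged from 1952 to 2470 CPM for DMSO, 1645 to 2869 for RA, 5525 to 6512 for PB and 4121 to 7131 for PB+RA, and nearly all of it is CHGA and CHGB themselves. Without these, SLC18A1 and PNMT summed to 5.35 to 9.01 CPM in DMSO, 21.4 to 32.9 in RA, 28.6 to 37.2 in PB and 42.3 to 59.4 in PB+RA. Of the 7 tested mesenchymal markers, 5 fell with PB (71.4% against 11.3% of all tested genes) and 1 rose (14.3% against 16.9%). With RA 2 rose (28.6% against 10.8%). With PB+RA 4 fell (57.1% against 17.9%) and 1 rose (14.3% against 24.0%). Their summed levels were 1102 to 1353 CPM in DMSO, 928 to 1074 in PB, 1838 to 2281 in RA and 1137 to 1560 in PB+RA, which overlaps DMSO. VIM and FN1 made up most of these sums and moved apart with PB+RA. On average VIM went from 862 CPM in DMSO to 607 in PB+RA, and FN1 from 175 to 519. Of the 3 tested Schwann cell and glial markers, 2 rose with PB (66.7% against 16.9%) and 1 with RA (33.3% against 10.8%). With PB+RA 2 rose (66.7% against 24.0%) and 1 fell (33.3% against 17.9%). Of the 9 adrenergic markers, 3 rose (33.3% against 16.9%) and 1 fell (11.1% against 11.3%) with PB. With RA 2 rose (22.2% against 10.8%) and 2 fell (22.2% against 2.54%). With PB+RA 2 rose (22.2% against 24.0%) and 1 fell (11.1% against 17.9%). These shares rest on few genes. The part of these marker groups in the changes of the members was not tested.

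**Figure D5:**
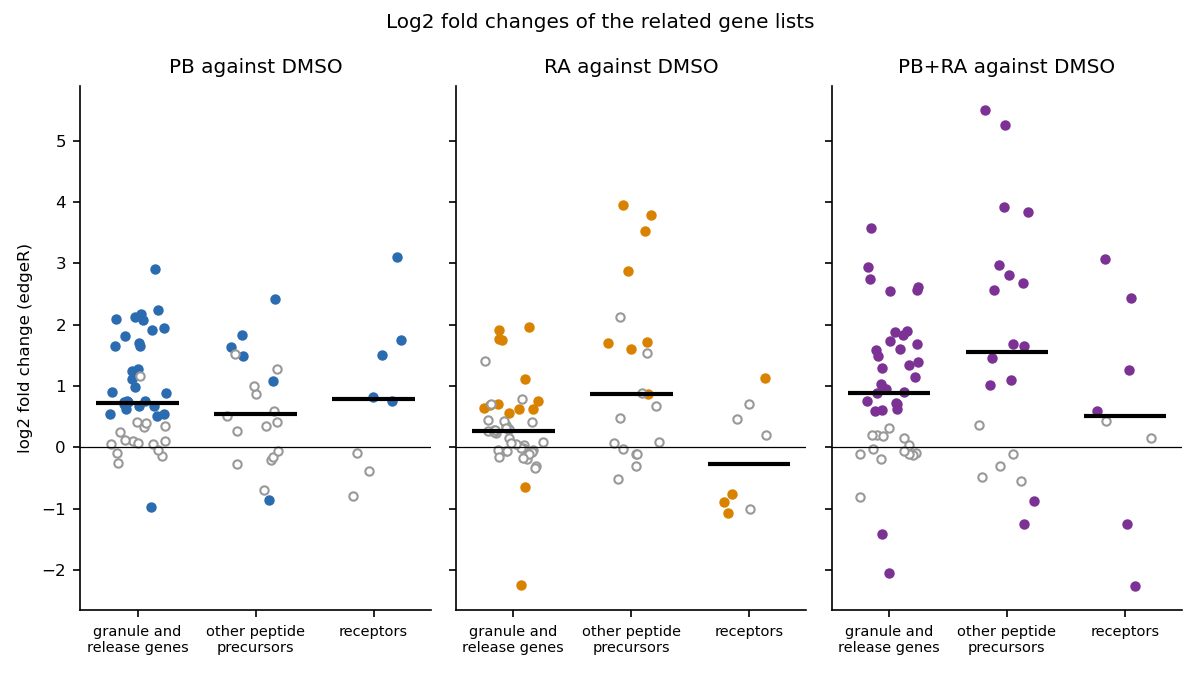
Log2 fold changes against DMSO of the tested genes of the 3 related lists, 46 granule and release genes, 20 other peptide precursors and 8 receptors; filled points were called, open points were not, and bars are medians. The granule genes have medians of 0.72, 0.27 and 0.90 with PB, RA and PB+RA, and the receptors have 0.79, -0.28 and 0.51.

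Other neuropeptide and peptide hormone precursor genes were mostly silent. Of 66 listed, 52 were in the table and 20 were tested. With PB, 5 were higher (25% against 16.9% of all tested genes) and 1 lower (5% against 11.3%), with a median log2 change of 0.55 against 0.03. With RA, 8 were higher (40% against 10.8%) and 0 lower (against 2.54%), with a median of 0.87 against 0.01. With PB+RA, 13 were higher (65% against 24.0%) and 2 lower (10% against 17.9%), with a median of 1.56 against 0.04. Among those higher with PB+RA, PNOC, CALCA, UCN3, CARTPT, PTHLH, NPPB and PROK2 averaged 0.0273, 0.0387, 0.0529, 0.0669, 0.127, 0.169 and 0.191 CPM in DMSO. They had enough counts to be tested only through treated groups. The shares and medians of this list are therefore set in part by the count filter and are a description. The largest rise with PB+RA among those that averaged 1 CPM or more across these samples was that of CALCB, the gene of beta calcitonin gene-related peptide, from 0.42 CPM in DMSO and 0.545 in PB to 3.23 in RA and 20.1 in PB+RA (log2 5.50 with PB+RA, adjusted p 1.94e-08). CALCB and CALCA overlap on opposite strands by 5733 bases, so their counts are uncertain. UCN, a relative of corticotropin-releasing hormone, rose by 1.68 with PB+RA (adjusted p 7.51e-05), NPPC, the C-type natriuretic peptide gene, by 1.66 (adjusted p 1.04e-05), and EDN1, the endothelin 1 gene, by 1.46 (adjusted p 0.0211). CALCB and UCN, at 0.471 CPM in DMSO for the latter, reached that mean only through PB+RA. Neither had enough counts in DMSO alone to be tested, so their rises are a description. CRH, the gene of corticotropin-releasing hormone and the most abundant precursor of this list, went from 661 CPM in DMSO to 284 in PB+RA, where it fell by 1.25 on the log2 scale (adjusted p 0.00024), and its changes with PB (-0.27) and RA (-0.52) were not called.

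Receptors for the members' peptides were few. Of 16 listed, 14 were in the table and 8 were tested. With PB, 5 were higher (62.5% against 16.9% of all tested genes) and 0 lower (against 11.3%). With RA, 1 was higher (12.5% against 10.8%) and 3 lower (37.5% against 2.54%), and with PB+RA 4 were higher (50% against 24.0%) and 2 lower (25% against 17.9%). Each share rests on 8 genes. The somatostatin receptor genes moved apart from each other: SSTR3 rose with PB (3.11) and PB+RA (3.07, adjusted p 2.96e-09), from 1.18 CPM in DMSO to 10.2 and 10.1, SSTR2 rose by 0.82 and 1.26 (adjusted p 0.00172 for the latter), and SSTR1 fell with PB+RA (-2.26, adjusted p 0.000657), from 1.65 to 0.349 CPM. The galanin receptor gene GALR1 rose by 1.51 with PB and 2.43 with PB+RA (adjusted p 4.85e-07), where it reached 5.43 CPM. VIPR2, a receptor of VIP, rose with PB (0.76) and PB+RA (0.59, adjusted p 0.008) and fell with RA (-0.76), the reverse of VIP itself for the single agents. The NPY receptor gene NPY2R fell with RA (-0.89) and PB+RA (-1.25, adjusted p 5.19e-05), from 39.6 CPM in DMSO to 21.5 and 17, and had a log2 change of -0.09 with PB.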

How the data were processed

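The deposited counts are reads per gene that the authors obtained with STAR after trimming with Trim Galore 0.6.4 and alignment to hg19 (STAR 2.6.1d per the labels), from polyadenylated RNA in strand-specific, paired-end libraries of 50 bases. The annotation and strand setting are not given in the sources used here. The deposited CPM were checked to equal each count over the sample's total. The authors' own table of comparisons (log2 fold changes and p-values from DESeq2) was not used.

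The titles of the samples give the group and the replicate number. All 16 samples entered 1 edgeR 4.0.16 quasi-likelihood fit in R 4.3.3 (filterByExpr, TMM, a coefficient per group), and p-values were adjusted over 15415 genes. SE is the absolute log2 fold change over the square root of F. Alternatives used RLE factors, other count filters, DESeq2 1.42.0 with apeglm 1.24.0, limma-voom (limma 3.58.1), a replicate block, subsets of samples and other fold minimums. The procedure was tested on simulated data for PB against DMSO. The simulated samples were drawn independently with no replicate effect, so that test does not bear on the split between replicate pairs. Same-numbered samples deviated together from their group means (24 pairs, r 0.33 to 0.573). Differently numbered samples did so too within replicates 1 and 2 (r 0.155 to 0.309) and within replicates 3 and 4 (0.269 to 0.447). PB replicate 4 had an r of 0.435 with PB+RA replicate 4 and 0.447 with PB+RA replicate 3. Matching by single number, which comes from the titles, is therefore not shown within replicates 3 and 4, and the replicate block assumes it. The 24 pairs of samples within a group differed by more than sampling noise (chi-square per degree of freedom 3.11 to 31.1). Gene positions are from GENCODE on GRCh37, and promoters from the RefSeq table of GRCh38.p14.

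The members and the gene lists were chosen with earlier results of these data known. Named genes were all 10 members, the 4 largest rises and 4 largest falls with PB+RA of each list among called genes with at least 1 CPM over the 8 samples, for each member with a mean of at least 10 CPM the 3 genes most correlated with it, of any level (on log2 CPM, prior count 2), and genes overlapping a member on the opposite strand. P-values measure the spread between cultures of a single line. Of the listed genes, those with no row in the table used here were not analysed here. A further promoter window is not reported here.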

Additional observations from a re-analysis of the deposited data

Results flagged for a closer look

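CHGB was singled out because the effect of RA on it differed with and without PB. The interaction was -0.87 on the log2 scale (adjusted p 0.0029, edgeR's quasi-likelihood test), where RA raised CHGB by 0.56 without PB and the change upon adding RA to PB was -0.31. Dixon's ratio flagged no single sample of the 9 tested genes as apart from the other 3 of its group. Of 36 sets of 4 CPM values examined, 0 exceeded its 95% critical value. In CHGA, NPY, VIP and SST the replicate pairs did not overlap in any group, and such a split makes a single sample hard to flag. The chance rate of about 1 in 20 holds for independent values, which these sets are not, so the count of 0 is a description.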

How the results depend on the processing

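The counts of members called were recomputed under each alternative. With the replicate block, 5 members in place of 3 were higher with PB, 1 in place of 0 was lower in PB+RA than in PB, and the interaction was called above 0 for 1 in place of 0 and below 0 for 2 in place of 1, and these calls were NPY and SST throughout. The block lost no call and, beside NPY and SST, changed none. With a log2 fold minimum of 1, the members lower with PB went from 1 to 0, those higher with RA from 4 to 1, those higher in PB+RA than in PB from 3 to 1 and than in RA from 5 to 3, those lower than in RA from 1 to 0, those lower in PB than in RA from 2 to 1, and the interaction below 0 from 1 to 0. With no fold minimum, 1 in place of 0 was lower with RA (SCG3) and 1 in place of 0 was lower in PB+RA than in PB (CHGB). In replicates 3 and 4 alone, 1 in place of 0 was lower with RA and 1 in place of 0 lower in PB+RA than in PB, both CHGA, and the interaction of CHGB was called for 0 in place of 1. The cause of the differences between replicate pairs was not tested. Leaving out 1 sample at a time gave from 2 to 4 members higher in PB+RA than in PB, and moved each count by at most 1.

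Of 1746 values of single members under these alternatives, 1691 kept their side of the thresholds, 29 lost a call, 26 gained one and 0 changed direction with a call. RLE size factors, DESeq2 without shrinkage (added after seeing the data), the stricter low-count filter and fits of only the groups compared changed 0 calls. SCG5 had too few counts to be tested, and depth limits SST in replicates 1 and 2. No alternative can part the replicate pairs from cultures, days or batches, which the labels do not give.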

Other observations

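Several peptide precursor genes below 1 CPM in DMSO, named here after their values were seen, were called higher with at least 1 treatment. CALCA, the gene of alpha calcitonin gene-related peptide, averaged 0.0387, 0.651, 0.0588 and 1.62 CPM in DMSO, RA, PB and PB+RA. PNOC, the nociceptin precursor gene, lay at 0.0273, 0.447, 0.0215 and 0.49 CPM in the same order, and CARTPT, the gene of the cocaine- and amphetamine-regulated transcript, at 0.0669, 0.891, 0.217 and 0.612 CPM. The first 2 of these were called with RA (log2 3.95 and 3.78) and with PB+RA (5.26 and 3.91) and not with PB (0.59 and -0.21), and CARTPT was called with RA (3.53) and PB+RA (2.98) and not with PB (1.53). Their DMSO levels are under the limit that a count of 0 allows, so these fitted values are no bounds on the fold. PROK2, the prokineticin 2 gene, was called with PB (2.42, from 0.191 to 1.07 CPM) and PB+RA (2.81) and not with RA (0.88). CALCA, PNOC, CARTPT and PROK2 had enough counts to be tested only through treated groups. Their calls against DMSO are therefore set in part by the count filter and are a description.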
